A study of Mus musculus with 6 samples.

Results

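The goblet cell and mucus genes are 10 genes chosen by name (Muc2, Fcgbp, Clca1, Zg16, Tff3, Agr2, Spdef, Atoh1, Spink4 and Retnlb) out of 55487 gene identifiers in the deposited table, and all 10 were found there. They were compared in RNA of the terminal ileum, the last stretch of the small intestine, between 3 libraries labelled NEC and 3 labelled control, all from C57BL/6 mice on postnatal day 9. NEC is necrotizing enterocolitis, an inflammatory disease of the immature bowel, modelled here by tube-feeding a hyperosmolar formula, with 10 min in 5% O2 given 3 times daily for 4 days and lipopolysaccharide by mouth (4 mg/kg daily) on days 6 and 7 after birth. Control labels carry the identical treatment text, so how the control pups were fed and handled is not stated, and feeding, hypoxia and lipopolysaccharide cannot be told apart. The labels do not say whether libraries came from separate animals, so the spread behind each p-value is that between these libraries and may be technical.

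Goblet cells are the mucus-secreting cells of the intestinal epithelium. The transcription factor ATOH1 directs crypt progenitors into the secretory lineages, and SPDEF then drives goblet maturation. In the endoplasmic reticulum AGR2 helps the large gel-forming mucin MUC2 to fold, and the granule releases MUC2 with the proteins FCGBP, CLCA1 and ZG16 and the small peptides TFF3, SPINK4 and RELM-beta, the product of Retnlb. In the small intestine this mucus is loose and holds antimicrobial peptides of Paneth cells near the epithelium.

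RefSeq promoter sequence (GRCm38.p6, the build that mm10 also names) was available for 5 of the 10 genes, and 4 are printed because they belong to both lineage factors and to the 2 most abundant gel proteins. Each covers the 250 bases before the transcription start, written 5′ to 3′ on the strand of the gene. Capitals mark matches, on either strand, to CAGCTG and CAGATG (E-boxes of the kind ATOH1 binds), TGTTTAC and TATTTAC (FOXA), TTTATTG and TTTATGG (CDX) and GGATGT (a core of the SPDEF motif).
Atoh1, chr6:64728875-64729124, plus strand: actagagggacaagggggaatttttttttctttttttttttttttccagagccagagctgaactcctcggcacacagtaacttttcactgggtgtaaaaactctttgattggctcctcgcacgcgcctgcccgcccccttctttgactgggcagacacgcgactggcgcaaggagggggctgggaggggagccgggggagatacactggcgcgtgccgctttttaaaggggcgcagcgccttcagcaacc
Spdef, chr17:27728952-27729201, minus strand: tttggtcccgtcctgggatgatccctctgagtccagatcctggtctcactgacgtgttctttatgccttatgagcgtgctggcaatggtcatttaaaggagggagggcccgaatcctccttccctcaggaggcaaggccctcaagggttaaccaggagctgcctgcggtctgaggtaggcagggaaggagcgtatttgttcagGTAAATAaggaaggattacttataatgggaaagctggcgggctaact
Muc2, chr7:141690090-141690339, plus strand: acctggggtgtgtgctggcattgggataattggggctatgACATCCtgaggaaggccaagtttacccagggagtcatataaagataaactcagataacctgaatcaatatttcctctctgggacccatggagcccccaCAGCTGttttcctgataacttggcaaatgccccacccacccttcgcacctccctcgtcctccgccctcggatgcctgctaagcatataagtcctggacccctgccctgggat
Fcgbp, chr7:28070986-28071235, plus strand: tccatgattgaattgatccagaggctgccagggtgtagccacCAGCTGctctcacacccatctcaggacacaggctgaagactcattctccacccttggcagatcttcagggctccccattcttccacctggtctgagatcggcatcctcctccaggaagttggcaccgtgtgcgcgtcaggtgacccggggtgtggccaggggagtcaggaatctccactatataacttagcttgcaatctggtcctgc
The Atoh1 window held none of the 7 motifs. The Spdef window held 1 match to TATTTAC, on the other strand, starting at position -47 from the transcription start. Muc2 and Fcgbp each had 1 CAGCTG, at -112 and -208, and Muc2 also had GGATGT on the other strand at -210. Of 32851 mouse promoters of the same length, 13.0% held CAGCTG, 2.73% held TATTTAC and 9.46% held GGATGT, and a match describes letters, not binding. No motif overlapped another in these windows.

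The deposited values name no unit and were read as FPKM, a measure of abundance per length of transcript and per depth of library, so levels can be compared between genes. The smallest steps of the values correspond to a depth of 16.9, 18.2 and 18.7 M fragments (M, mega) in NEC 1, 2 and 3, and of 15.6, 15.2 and 16.2 M in control 1, 2 and 3. Each NEC library had 13461 to 14882 genes reaching 1 FPKM, against 16290 to 16702 in each control. The FPKM of all genes summed to 628698 in NEC 1 and to between 394613 and 450361 in the other libraries. The part of these library differences in the results was not tested. In limma on log2(FPKM + 1), 15806 genes had a mean of at least 1 FPKM and 38.2% of them had an adjusted p under 0.05. Of all tested genes, 7.69% were called higher and 30.6% lower in NEC. Their median log2 change was -0.26 on the deposited scale, 0.01 after TMM scaling and 0.00 after quantile normalization, so changes below are also given relative to that median.

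Libraries of one group differed in most of the goblet genes. Control 3 had 30.8% (Spink4) to 98.2% (Spdef) of the mean of controls 1 and 2 for the 9 members with any signal, where the median over all tested genes was 98.1%. NEC 1 had 25.3% (Spink4) to 83.7% (Spdef) of the mean of NEC 2 and 3, except for Zg16 at 257%, where the median over all tested genes was 82.0%. The SD of log2(FPKM + 1) among controls was 0.96 for Spink4, 0.65 for Clca1 and 0.48 for Fcgbp, against a median of 0.09 over all tested genes. Spdef, at 0.01, was the member on which the controls were closest.

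Of the 10 genes, 4 were lower in NEC (Atoh1, Spdef, Tff3 and Spink4), 1 was higher (Zg16), 4 did not pass (Muc2, Fcgbp, Clca1 and Agr2), and Retnlb was listed at 0 in every library and was not tested. Over all tested genes, 30.6% were lower and 7.69% higher. The 2 lineage factors and 2 small peptides were called lower, while the level of Muc2 itself, 0.975 of control, gave no call. In 4 of the 9 tested genes all NEC libraries lay below all controls, near the 47.3% of all tested genes that did so, and in 1 all lay above, against 11.8% of tested genes. The median log2 change of the 9 was -0.65, against -0.26 over all tested genes. The filter bears on 2 of them: Zg16 passed it through the NEC libraries alone and Spdef through the controls. With TMM scaling 1 member was higher and 1 lower, and with quantile normalization likewise, Zg16 and Atoh1 in both. Without control 3 the 4 lower genes were Atoh1, Tff3, Spink4 and Fcgbp and none was higher, and without control 1 or without control 2 no member was called by limma. At an unadjusted p under 0.05, 3 members were lower and 1 higher without control 1, and 4 were lower and 1 higher without control 2.

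**Figure D1:**
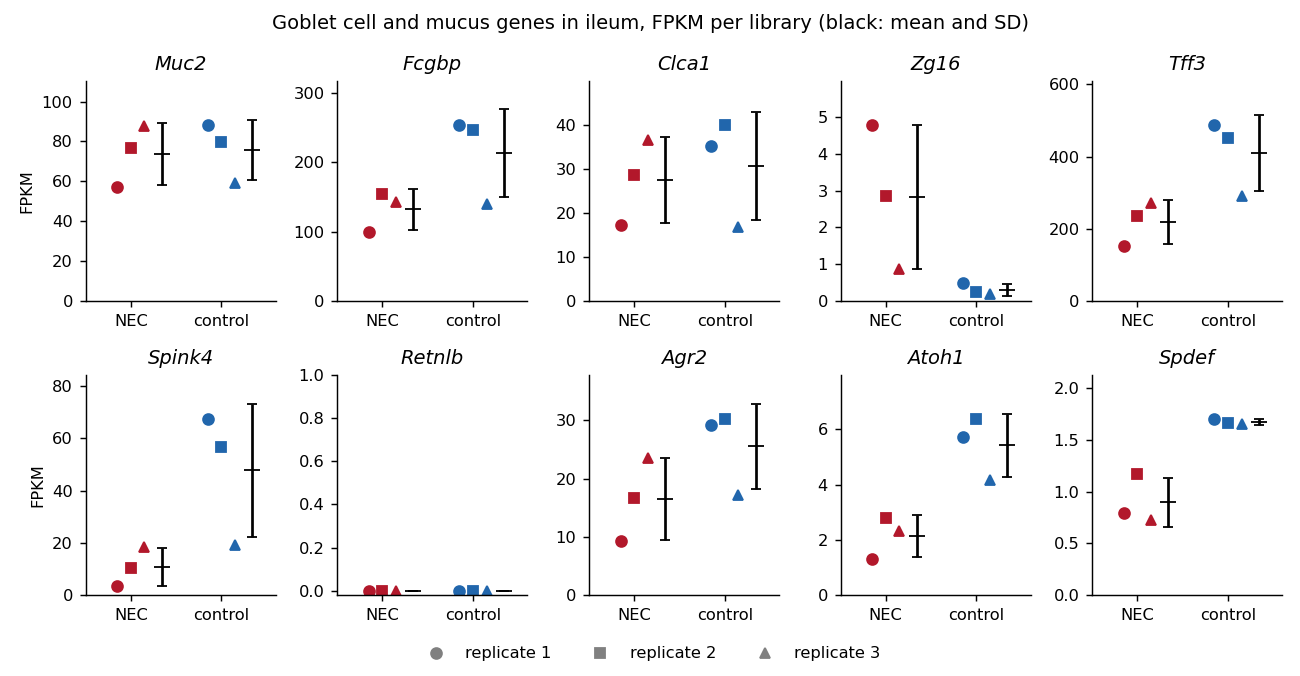
FPKM of each of the 10 genes in each library, with NEC in red on the left and control in blue on the right of each panel; marker shapes give the replicate and black bars the mean and SD of 3 libraries. The NEC points of Tff3, Spink4, Atoh1 and Spdef lie below all control points, those of Zg16 above, and control 3 is the lowest control in each gene with signal, in Spdef by a small margin.

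Atoh1 (ENSMUSG00000073043, chromosome 6, 64729125 to 64731245, a single-exon gene) encodes the basic helix-loop-helix factor without which no secretory cells form. It had 1.31, 2.78 and 2.32 FPKM in NEC 1, 2 and 3, against 5.73, 6.38 and 4.16 FPKM in control 1, 2 and 3. Since the gene has 1 annotated transcript, these values correspond to about 47, 107 and 92 fragments in NEC and 190, 206 and 143 in control. The highest NEC library stayed below the lowest control. Its mean was 2.14 ± 0.752 FPKM in NEC and 5.42 ± 1.14 FPKM in control (SD, n = 3 each), a ratio of 0.394 and a log2 change of -1.05 (SE 0.22, limma, adjusted p = 0.0161), or -0.79 relative to the median of all genes. Among the settings in which Atoh1 was tested, its call was lost in those without control 1 and without control 2. Even there its log2 change stayed negative.

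Spdef (ENSMUSG00000024215, chromosome 17, 27714352 to 27728955) encodes the ETS factor of goblet and Paneth cell maturation. Its level was 0.795, 1.17 and 0.730 FPKM in NEC 1, 2 and 3, against 1.70, 1.66 and 1.65 FPKM in control 1, 2 and 3. The groups did not overlap, and control 3 was level with the other controls here, unlike in the other members. The log2 change was -0.50 (SE 0.13, limma, adjusted p = 0.0243), or -0.24 relative to the median of all genes. At this level the log2(FPKM + 1) scale understates the ratio of means, 0.537. The call was lost with TMM scaling, with quantile normalization and with the replicate block, which pairs libraries of the same number. It was also lost without control 1, control 2 or control 3.

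Agr2 (ENSMUSG00000020581, chromosome 12, 35992907 to 36004087), the disulfide isomerase family member needed to fold MUC2, had 9.26, 16.7 and 23.5 FPKM in NEC 1, 2 and 3, against 29.3, 30.3 and 17.2 FPKM in control 1, 2 and 3. NEC 3 lay above control 3, so the groups overlapped. The log2 change of -0.65 (95% interval -1.49 to 0.19) did not pass (limma, adjusted p = 0.180).

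Muc2 (ENSMUSG00000025515, chromosome 7, 141690340 to 141754693), the gel-forming mucin, had 57.1, 76.7 and 87.5 FPKM in NEC 1, 2 and 3, against 88.2, 79.6 and 59.3 FPKM in control 1, 2 and 3. The ranges covered each other almost entirely, with NEC 3 next to control 1 and NEC 1 next to control 3. Its mean was 73.8 ± 15.4 FPKM in NEC and 75.7 ± 14.9 FPKM in control (SD, n = 3 each). The log2 change was -0.04 (95% interval -0.53 to 0.45, limma, adjusted p = 0.894), an interval that leaves room for a change of moderate size either way, and it was 0.22 relative to the median of all genes. It was 0.31 with TMM scaling, again not passing. The annotation used here holds Muc2 as 8 transcripts of at most 2926 bases, shorter than a full mucin message, so its models cover the gene in pieces. Whether the deposited Muc2 FPKM rests on such models is not known, since the submitters' annotation is not given. The other gel-forming mucin genes of the same cluster on chromosome 7, Muc6, Muc5ac and Muc5b, were at 0.0536 FPKM or less in every library.

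Fcgbp (ENSMUSG00000047730, chromosome 7, 28071236 to 28120862) encodes a large mucus protein bound to MUC2. It stood at 98.9, 155 and 143 FPKM in NEC 1, 2 and 3, against 253, 247 and 140 FPKM in control 1, 2 and 3. All NEC libraries lay well under controls 1 and 2, while control 3 fell within the NEC range. The log2 change was -0.66 (95% interval -1.32 to -0.01) and did not pass after adjustment (limma, adjusted p = 0.0963). Without control 3 it was -0.94 and passed.

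Clca1 (ENSMUSG00000028255, chromosome 3, 145003817 to 145032776), a secreted metalloprotease that processes the mucus, had 17.3, 28.6 and 36.7 FPKM in NEC 1, 2 and 3, against 35.2, 40.0 and 16.8 FPKM in control 1, 2 and 3. The lowest library of all was control 3, followed by NEC 1, and the groups overlapped. The log2 change was -0.13 (95% interval -1.04 to 0.79, limma, adjusted p = 0.809), and 0.21 with TMM scaling.

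Zg16 (ENSMUSG00000049350, chromosome 7, 127050156 to 127087328) encodes a lectin that binds the cell wall of Gram-positive bacteria in mucus and is best known from the colon. Its values were 4.77, 2.84 and 0.878 FPKM in NEC 1, 2 and 3, against 0.505, 0.239 and 0.187 FPKM in control 1, 2 and 3. It was the single member with every NEC library above every control, and the NEC libraries themselves spread widely, NEC 1 being highest and NEC 3 nearest to the controls. The ratio of means was 9.11 and the log2 change 1.41 (SE 0.39, limma, adjusted p = 0.0308), or 1.67 relative to the median of all genes. Over its 1257 exonic bases 1 fragment would be worth 0.0427 to 0.0523 FPKM, and 3 fragments 0.128 to 0.157 FPKM. Its longest annotated transcript has 723 bases, and on that length each fragment would be worth more FPKM. Controls 2 and 3 lay little above the value of 3 fragments on 1257 bases, so the ratio rests on few fragments in control. Zg16 passed the filter through the NEC libraries alone. Its direction held with TMM scaling and quantile normalization, where it passed too, but the call was lost without a filter and without NEC 2, control 1, control 2 or control 3.

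Tff3 (ENSMUSG00000024029, chromosome 17, 31125306 to 31129646), the trefoil peptide of goblet cells known for epithelial repair, was the member with the highest FPKM in both groups. It had 153, 235 and 272 FPKM in NEC 1, 2 and 3, against 488, 452 and 292 FPKM in control 1, 2 and 3. NEC 3 and control 3 were close, and the groups did not overlap. The mean was 220 ± 60.8 FPKM in NEC and 410 ± 104 FPKM in control (SD, n = 3 each), with a log2 change of -0.90 (SE 0.28, limma, adjusted p = 0.0422), or -0.64 relative to the median of all genes. The call was lost with TMM scaling, with quantile normalization, with scaling to pan-epithelial genes, with the replicate block and without a filter. It was also lost without NEC 1, NEC 2, control 1 or control 2.

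Spink4 (ENSMUSG00000028415, chromosome 4, 40920052 to 40931395) encodes a Kazal-type protease inhibitor peptide of goblet cells. It measured 3.62, 10.2 and 18.4 FPKM in NEC 1, 2 and 3, against 67.4, 56.8 and 19.1 FPKM in control 1, 2 and 3. The gap between NEC 3 and control 3 was small, and the distance of both from controls 1 and 2 was larger than that gap. The ratio of means was 0.225 and the log2 change -2.10 (SE 0.64, limma, adjusted p = 0.0408), the largest fall among the members, or -1.84 relative to the median of all genes. Its call was lost with TMM scaling, with quantile normalization, with the replicate block and without a filter. It was also lost without NEC 1, NEC 2, control 1 or control 2.

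Retnlb (ENSMUSG00000022650, chromosome 16, 48816856 to 48818892), which encodes RELM-beta, an antibacterial goblet cell protein of the large bowel induced by type 2 cytokines and by bacterial colonization, was listed at 0 in all 6 libraries. One fragment on its 696 exonic bases would have been worth 0.077 to 0.0944 FPKM, and a count of 0 allows up to 0.231 to 0.283 FPKM, counting error only. In bulk tissue, fewer goblet cells and less RNA of these genes per cell cannot be told apart for any member.

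**Figure D2:**
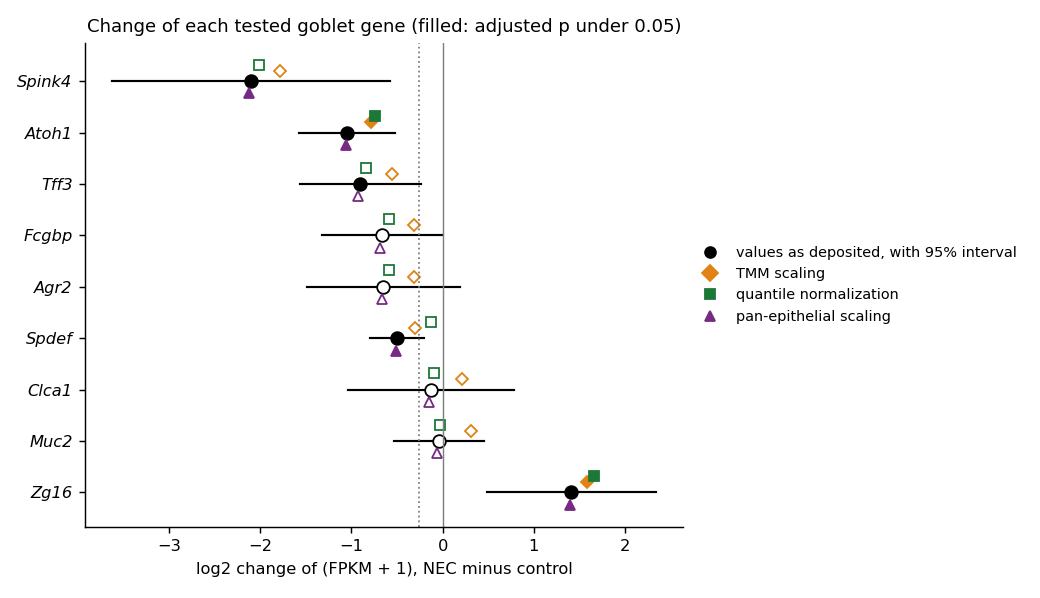
Log2 change of each of the 9 tested genes, NEC minus control, on log2(FPKM + 1). Black circles with lines are the values as deposited with the 95% interval, diamonds TMM scaling, squares quantile normalization and triangles scaling to pan-epithelial genes; filled symbols have an adjusted p under 0.05, and the dotted line is the median of all tested genes, -0.26. Atoh1 and Zg16 are filled under each of the 4 scalings.

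By FPKM, Tff3 stood first and Fcgbp second in each of the 6 libraries, with Muc2 next in each. The place of Muc2 may depend on gene models that cover it in pieces. In control, Spink4 (47.8 ± 25.4 FPKM) came next, then Clca1 (30.7 ± 12.2) and Agr2 (25.6 ± 7.29), with ranges that overlapped one another (SD, n = 3). In NEC the order of these 3 was Clca1 (27.5 ± 9.77 FPKM), Agr2 (16.5 ± 7.11) and Spink4 (10.7 ± 7.41), again with overlapping ranges. By group mean, Atoh1, Spdef and Zg16 were the lowest members with signal. In NEC the range of Zg16 overlapped those of Atoh1, Spdef and Spink4, and in NEC 1 Zg16 (4.77 FPKM) lay above Spink4 (3.62 FPKM).

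Dividing the FPKM by that of Muc2 in the same library removes any scaling between libraries from the shares, which are given as a description with no test. The size of each share also depends on the Muc2 gene models. Of 15805 other tested genes, 36% had every NEC share below every control share, and 4.9% had every NEC share above. Tff3 was at 269%, 306% and 311% of the Muc2 FPKM in NEC 1, 2 and 3, against 553%, 568% and 492% in control 1, 2 and 3. Here control 3 stood with the other controls, and the gap between the groups was wide relative to their spread. Fcgbp was at 173%, 202% and 163% of Muc2 in NEC 1, 2 and 3, against 287%, 310% and 237% in control 1, 2 and 3, without overlap although its own level overlapped. Atoh1 was at 2.29%, 3.62% and 2.65% of Muc2 in NEC 1, 2 and 3, against 6.50%, 8.02% and 7.02% in control 1, 2 and 3. These 3 genes shared the pattern that every NEC share was below every control share.

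Spink4 was at 6.35%, 13.3% and 21.0% of Muc2 in NEC 1, 2 and 3, against 76.4%, 71.4% and 32.2% in control 1, 2 and 3, so control 3 stayed apart from the other controls. Agr2 was at 16.2%, 21.8% and 26.8% in NEC 1, 2 and 3, against 33.2%, 38.1% and 29.0% in control 1, 2 and 3. Spdef ranged from 0.834% to 1.52% of Muc2 in NEC and from 1.93% to 2.79% in control. These 3 did not overlap between groups either, while Clca1, at 30.2% to 41.9% in NEC and 28.4% to 50.3% in control, did. Zg16 was at 1.004% to 8.36% of Muc2 in NEC and at 0.301% to 0.573% in control. On log2(FPKM + 1), the difference to Muc2, as the NEC mean minus the control mean, was -2.06 for Spink4, -0.86 for Tff3, -0.63 for Fcgbp and -0.61 for Agr2. Unlike the shares, these values depend on the pseudocount, most of all for low genes. For Zg16 the value was 1.45 with a pseudocount of 1 FPKM and 2.67 with 0.1 FPKM, and for Atoh1 it was -1.01 and -1.31.

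**Figure D3:**
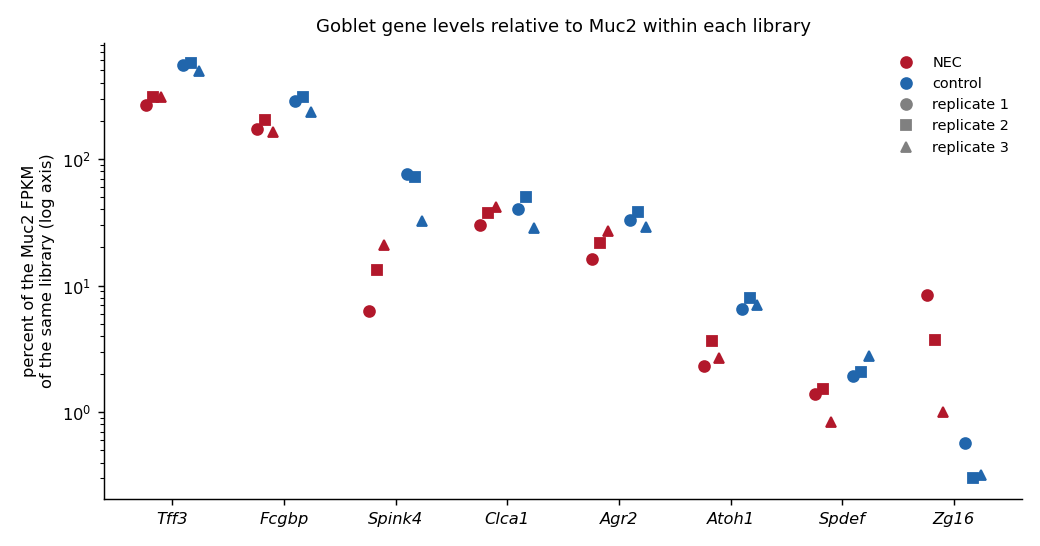
Level of 8 members as a percent of the Muc2 FPKM of the same library, on a log axis, NEC in red left of control in blue, marker shapes giving the replicate. All groups separate except for Clca1, and Zg16 alone lies above control.

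Further genes of goblet cell biology were counted in 7 lists, which share some genes. Each count below stands against 30.6% lower and 7.69% higher over all tested genes, with a median log2 change of -0.26. Among 15 lineage factors, 13 were tested, 7 were lower, 1 higher and 5 did not pass, with a median log2 change of -0.57. Foxa3, a forkhead factor of goblet cells, had 2.89 ± 0.833 FPKM in NEC and 6.89 ± 1.04 FPKM in control (SD, n = 3 each; log2 -1.04, limma, adjusted p = 0.0117). Creb3l4, a membrane-bound factor of secretory cells, fell by 1.23, and Sox9, a factor of crypt progenitors and Paneth cells, by 1.04 on the log2 scale. Creb3l4 averaged under 1 FPKM in NEC and passed the filter through the controls alone. Klf4, a factor of terminal goblet differentiation in the colon, was the 1 that rose, with 38.1 ± 4.44 FPKM in NEC and 26.2 ± 0.509 FPKM in control (log2 0.52, limma, adjusted p = 0.0152). With TMM scaling, and with quantile normalization, 4 of the factors were lower and 1 higher.

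Of 33 other goblet markers 26 were tested, 13 were lower, 2 higher and 11 did not pass, with a median log2 change of -0.75. Ern2, the IRE1-beta sensor of goblet cells, had 3.49 ± 0.613 FPKM in NEC and 6.80 ± 1.45 FPKM in control (log2 -0.79, limma, adjusted p = 0.0184). Klk1, a kallikrein, fell by 1.33, Hepacam2, a cell adhesion protein, by 1.12, and Tpsg1, a tryptase, by 1.03. Clca4a, a relative of Clca1, went the other way, with 51.8, 49.8 and 19.3 FPKM in NEC 1, 2 and 3, against 5.27, 4.10 and 4.80 FPKM in control 1, 2 and 3 (log2 2.73, limma, adjusted p = 0.00591). Clca genes lie close together and are similar in sequence, so reads may be split between them. Which cell type the Clca4a RNA came from was not tested. With TMM scaling 6 of these markers were lower and 2 higher, and with quantile normalization 5 and 2, and the Klk1 call was lost in both. Klk1 and Ccl9, another marker called lower, passed the filter through the controls alone. The Klk1 call was lost in 11 of the 16 alternative settings in which it was tested.

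For folding and granule release, 20 of 24 genes were tested, 8 were lower, none higher (0 also at an unadjusted p under 0.05 in limma) and 12 did not pass, with a median log2 change of -0.46. The share called, 40%, was near the 38.2% of all tested genes. Mlph, melanophilin, a RAB27 effector, had 6.20 ± 1.59 FPKM in NEC and 13.5 ± 1.62 FPKM in control (limma, adjusted p = 0.00994). Rab3d, a granule GTPase, fell by 0.58, and Vamp2, a SNARE protein of membrane fusion, by 0.45 on the log2 scale. TMM scaling, which moves the median of all tested genes to 0.01, gave 3 lower and 4 higher, and quantile normalization gave 3 lower and none higher. Rab3d passed the filter through the controls alone.

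O-glycosylation, which coats mucins with sugar, was mixed: of 20 tested genes out of 27, 9 were lower, 4 higher and 7 did not pass, with a median log2 change of -0.22. Gal3st2, a galactose sulfotransferase, had 1.57 ± 0.625 FPKM in NEC and 6.74 ± 0.409 FPKM in control (log2 -1.62, limma, adjusted p = 0.00462). Gcnt3, which branches O-glycans, fell by 1.22, Galnt12, which starts them, by 0.97, and Slc35a1, the CMP-sialic acid transporter, by 0.76. The 4 that rose were Galnt6, Galnt10, Gcnt4 and the sulfate transporter gene Slc26a2. TMM scaling gave 4 lower and 8 higher, and quantile normalization 8 lower and 5 higher.

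Of 16 genes listed as other mucins 5 were tested, 3 rose, none fell and 2 did not pass, and the 3 are membrane proteins of the enterocyte brush border. None of the 5 was lower at an unadjusted p under 0.05 in limma either, nor called lower with TMM scaling or quantile normalization. Muc3a was called lower without NEC 1 and with sample weights, and 1 gene of the list was called lower without a filter. Muc3 had 224, 120 and 107 FPKM in NEC 1, 2 and 3, against 41.0, 31.5 and 33.0 FPKM in control 1, 2 and 3 (log2 2.00, limma, adjusted p = 0.00655). Muc13 rose by 0.65, and Cdhr5, a mucin-like cadherin of the microvilli, by 0.35 on the log2 scale. Muc3a and Muc3 are separate entries of similar sequence, so the split between them is uncertain.

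Of 12 genes of mucus release and ion transport, all tested, 4 were higher, 4 lower and 4 did not pass. The 2 meprin subunits, brush border proteases of which meprin beta detaches small intestinal mucus, went opposite ways: Mep1b had 164 ± 28.8 FPKM in NEC and 98.0 ± 1.33 FPKM in control, and Mep1a 99.8 ± 31.6 FPKM in NEC and 246 ± 15.5 FPKM in control (SD, n = 3 each; log2 0.72 and -1.34, limma, adjusted p = 0.0141 and 0.00929). Guca2b, uroguanylin, rose by 1.40, and Slc12a2, the chloride-loading cotransporter of secretion, fell by 1.16. Slc9a3, the sodium-proton exchanger NHE3, had 69.2, 8.54 and 5.53 FPKM in NEC 1, 2 and 3, against 1.59, 1.46 and 1.24 FPKM in control 1, 2 and 3, NEC 1 standing far above NEC 2 and 3. Cftr, the chloride channel that hydrates mucus, did not pass, with 8.21 ± 2.39 FPKM in NEC and 8.35 ± 0.246 FPKM in control.

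Among 15 genes of the cytokine axis that expands goblet cells, 7 were tested, 4 rose and none fell, 0 also at an unadjusted p under 0.05 in limma. Il13 was listed at 0 in all 6 libraries, and Il4 and Il25 were at 0.139 FPKM or less. Areg, amphiregulin, had 35.1, 33.8 and 5.12 FPKM in NEC 1, 2 and 3, against 2.27, 2.97 and 2.54 FPKM in control 1, 2 and 3. Il1rl1, the IL-33 receptor, Il22ra1, an IL-22 receptor chain, and Stat6, which carries IL-4 and IL-13 signals, rose by 0.93, 0.63 and 0.60. Il1rl1 passed the filter through the NEC libraries alone. Without a filter 3 genes of this list were called lower, and 1 without control 3.

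**Figure D4:**
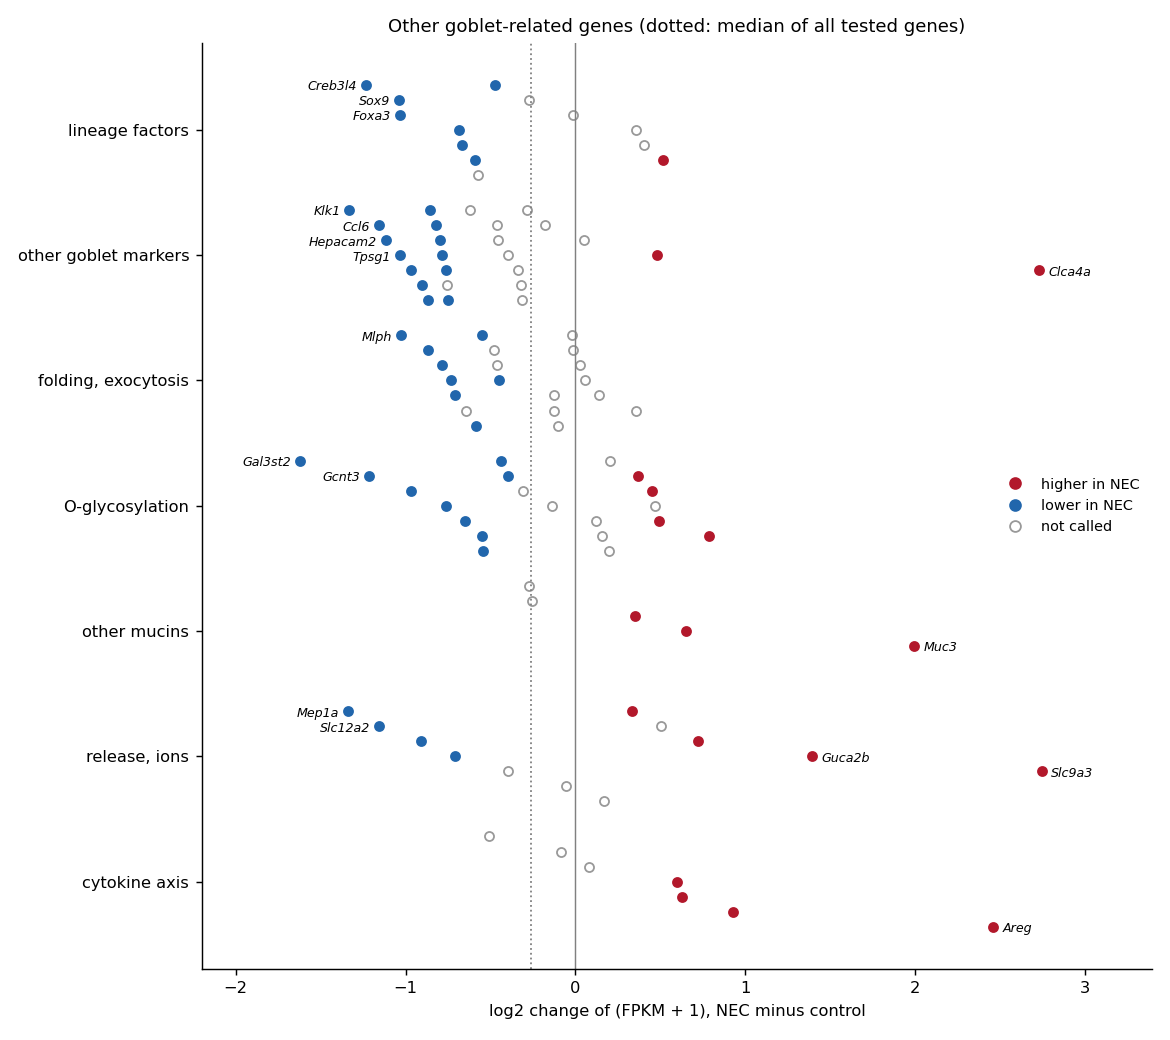
Log2 change, NEC minus control, of every tested gene of the 7 other goblet-related lists, 1 row of points per list (genes in 2 lists are drawn in both); names are given from a change of 1 either way. Blue marks genes called lower and red genes called higher. The grey line is 0 and the dotted line the median of all tested genes. Of all 15806 tested genes, 11598 lay below 0, as did 10 of 13 lineage factors, 23 of 26 markers and 16 of 20 folding genes. The mucin and cytokine lists hold no blue point.

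Over the 7 lists together and without the 10 members, 97 genes were tested, 38 were lower, 18 higher and 41 did not pass. Over all tested genes 30.6% were lower and 7.69% higher. Without control 1 these counts were 6 lower and 5 higher, and without control 2 they were 5 and 5. Over all tested genes, 4829 lower calls became 1104 without control 1 and 1004 without control 2. Without control 3, 28 of the goblet-related genes were lower and 7 higher, and without NEC 2, 20 and 10.

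Markers of other ileal cells also differed between the groups, stem cell and stroma genes downward and enterocyte genes upward, and their part in the results was not tested. All 30 pan-epithelial genes were tested, 4 being higher and 2 lower in NEC, with a mean log2(FPKM + 1) of 5.2 to 5.3 in NEC and 5.19 to 5.25 in control. Scaling to this list left Atoh1, Spdef and Spink4 lower and Zg16 higher, while Tff3 no longer passed. Of 16 enterocyte genes 15 were higher and none lower, 0 also at an unadjusted p under 0.05 in limma, and their summed level was 13190 to 16450 FPKM in NEC and 3601 to 4447 FPKM in control. Of 10 stem cell genes 9 were lower, with sums of 22.2 to 51.7 FPKM in NEC and 93.4 to 102 FPKM in control. Of 17 tested stroma and muscle genes 11 were lower, with sums of 256 to 992 FPKM in NEC and 1344 to 1628 FPKM in control, NEC 1 being lowest. Of the genes called here, Lgr5, Ascl2, Msi1 and Elavl4 passed the filter through the controls alone, and Fabp1 through the NEC libraries alone.

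Sister secretory lineages gave few calls among few tested genes, where 30.6% of all tested genes were lower. The log2 change was below 0 in all 6 tested Paneth cell genes (median -0.88) and all 8 tested enteroendocrine genes (median -0.64). Of all 15806 tested genes, 11598 lay below 0. Over the 9 tested goblet members the median was -0.65, and over all tested genes -0.26. The Paneth gene Defa20 passed the filter through the controls alone, with 5.12, 1.24 and 0 FPKM in control 1, 2 and 3. Of 6 tested Paneth cell genes, 1 was lower and 5 did not pass, and Ang4, an angiogenin that goblet cells also make, had 2.26 ± 0.966 FPKM in NEC and 9.82 ± 2.35 FPKM in control (limma, adjusted p = 0.00692). Of 8 tested enteroendocrine genes 2 were lower, the hormone genes Pyy and Sct, by 1.24 and 0.88 on the log2 scale. The summed Paneth list was at 33.3, 57.7 and 62.1 FPKM in NEC 1, 2 and 3, against 272, 182 and 41.5 FPKM in control 1, 2 and 3, so control 3 was low in it as in the goblet genes. The tuft cell factor gene Pou2f3 was at 0.0809 FPKM or less in every library.

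**Figure D5:**
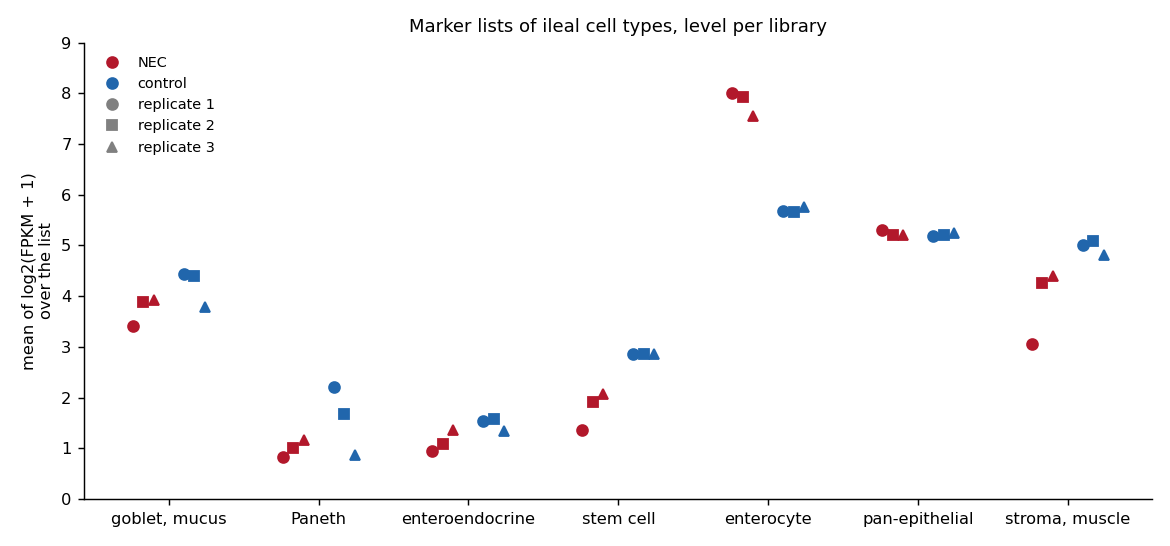
Mean of log2(FPKM + 1) over the genes of each marker list in each library, NEC in red left of control in blue, marker shapes giving the replicate. The pan-epithelial means of the groups lie close together, enterocyte genes lie higher in NEC, stem cell and stroma genes lower, and control 3 lies below the other controls in the goblet and Paneth lists.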

How the data were processed

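RNA of terminal ileum was profiled in 3 NEC and 3 control libraries. Per the labels' protocols, total RNA with an integrity number above 7 was made into paired-end TruSeq libraries. The tools named in the submitters' processing notes are HISAT2, SAMtools 1.3.1 and Cuffdiff, and the build is mm10. Neither annotation nor strand setting is given in the sources used here. No unit stands in the deposited table; the values the authors deposited were taken to be FPKM, the output of Cuffdiff. In single-transcript genes 98.7% to 99.0% of values below 100 fragments were whole multiples of 1 fragment within 0.05, from which depth was estimated. Columns beginning with N were taken as NEC. Of 55487 identifiers, 55227 matched GENCODE M21, the source of symbols, transcripts and coordinates.

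limma 3.58.1 (R 4.3.3) with a mean-variance trend was fitted to log2(FPKM + 1) where a gene averaged 1 FPKM or more, with group as the only term and Benjamini-Hochberg adjustment over all of them. A call is an adjusted p under 0.05. On this scale changes of low genes are understated. The fit was tested on simulated data. With 3 against 3, an exact permutation test of 1 gene cannot go below 0.1 and was not used. There were 17 alternative settings. The members and lists were chosen with earlier results of these data known. Named genes were the members, and per goblet list those called whose log2 change was 1 or more either way plus up to 4 with the smallest p; for other cell types up to 4 with the smallest p and the 2 most abundant. Cftr, Muc5ac, Muc5b, Muc6, Il4, Il13, Il25, Pou2f3, Slc26a2, Galnt6, Galnt10 and Gcnt4 were named outside this rule, after their values were seen. So were Ccl9, Ascl2, Elavl4 and Defa20. Plots used matplotlib 3.10.9 (Python 3.11.15).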

Additional observations from a re-analysis of the deposited data

How the results depend on the processing

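The calls of the members rest on few libraries. Of the 10 genes, the lower calls numbered 4 on the deposited scale, 1 with TMM scaling, 1 with quantile normalization, 1 with the replicate block (the calls of Spdef, Tff3 and Spink4 were lost there), 2 without a filter and 2 above the 5 FPKM filter, and 0 to 4 when single libraries were left out. The 1 higher call, Zg16, became 0 without a filter and 0 above the 5 FPKM filter, where Zg16 is not tested, and 0 to 1 with libraries left out. Among the other goblet-related genes, 38 lower calls became 16 above the 5 FPKM filter, 18 with TMM scaling, 21 with quantile normalization and 24 with the replicate block, with 5 to 42 when libraries were left out, and 18 higher calls became 27 with TMM scaling, 20 with quantile normalization and 5 to 21 when libraries were left out. Over all tested genes, 1215 higher calls became 2655 with TMM scaling and 2202 with quantile normalization, with 481 to 1584 when libraries were left out. The 4829 lower calls became 1746 above the 5 FPKM filter, 2264 with TMM scaling and 2387 with quantile normalization, with 1004 to 5302 when libraries were left out. Fewer libraries and fewer tested genes are part of these settings by construction; otherwise the cause was not tested.

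No value of Atoh1, Spdef, Agr2, Fcgbp, Tff3, Spink4 or Zg16 changed sign in any setting. The log2 change of Muc2 turned to 0.31 with TMM scaling, 0.0334 with scaling to protein-coding genes (the top 100 by level left out) and 0.0197 with sample weights, and ran from -0.20 to 0.13 when single libraries were left out, above 0 without NEC 1, control 1 or control 2. That of Clca1 turned to 0.21 with TMM scaling and ran from -0.50 to 0.16 when libraries were left out, above 0 without the same 3. Outside the members, Muc3a turned to 0.0521 and Pcna to 0.23 with TMM scaling, Emcn to 0.14 with quantile normalization, and Lyz2 ran from -0.22 to 0.32 when libraries were left out, below 0 without NEC 2 or control 1. None of these 4 was called on the deposited scale, and Muc3a was called lower with sample weights and without NEC 1. With a pseudocount of 0.1 FPKM the log2 ratio to Muc2, NEC minus control, was 2.67 for Zg16, -0.81 for Spdef and -1.31 for Atoh1, away from 0 relative to a pseudocount of 1. The deviations of same-numbered libraries from their group means correlated at -0.05, -0.01 and -0.07, and those of differently numbered libraries at -0.03 to 0.08. No pairing by number showed over all genes, but a pairing limited to some genes would not show in these values. The replicate block, which called 856 genes higher and 3230 lower, is given as an alternative only.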

Other observations

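The pattern of Muc2 over the 6 libraries was most like that of Capns1 among 5836 protein-coding genes that averaged 5 FPKM or more, with a Pearson r of 0.97 on log2(FPKM + 1), followed by Rbm4 (0.95), Mtln (0.948), Ap1ar (0.931) and Ccdc90b (0.925). These are descriptions over 6 libraries that share group, depth and library make-up. Capns1 moved little in size, with 18.2, 19.5 and 20.1 FPKM in NEC 1, 2 and 3, against 19.9, 20.1 and 18.5 FPKM in control 1, 2 and 3. Retnlb, at 0 throughout, has no pattern to compare.

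Defensin transcripts of Paneth cells varied within the controls as the goblet peptides did. Defa17 had 5.66, 15.9 and 18.1 FPKM in NEC 1, 2 and 3, against 110, 71.3 and 12.1 FPKM in control 1, 2 and 3, and Defa24 had 18.2, 30.5 and 31.1 FPKM in NEC 1, 2 and 3, against 118, 81.1 and 16.6 FPKM in control 1, 2 and 3. Both were lower in control 3 than in NEC 2 and NEC 3, and neither passed (limma, adjusted p = 0.110 and 0.252). Defensin genes are near-identical copies, so the split of reads between them is uncertain.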
